A study of Mus musculus with 2 samples.

Results

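Chemokines are small secreted proteins that guide migrating cells through receptors coupled to inhibitory G proteins. In the CXCL12 axis, the ligand CXCL12 (stromal cell-derived factor 1), typically made by mesenchymal and stromal cells, is recognized by the signaling receptor CXCR4 on endothelial, hematopoietic and other cells. It is also taken up by the atypical receptor ACKR3 (formerly CXCR7), which couples to arrestins and clears the ligand from the tissue. The axis is known for its part in blood vessel patterning and in the migration of blood cells and progenitors, and most other chemokines are known for recruiting leukocytes. The genes described here are Cxcl12, its receptor genes Cxcr4 and Ackr3, and the 7 further chemokine genes Cxcl14, Cxcl13, Cxcl1, Cxcl10, Cxcl16, Ccl2 and Ccl11. They were taken by name from the gene column of the arrays, where Cxcr7 counts as Ackr3, and make up 10 of 29876 genes and 12 of 39429 probes.

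Ureters of wildtype NMRI mouse embryos had been dissected at E12.5 and kept for 18 h on transwell membranes, in serum-free medium with either 10 µM BIO or only its solvent DMSO, at 2 parts to 1000. BIO inhibits the kinase GSK3 and thereby activates canonical WNT signaling, and as an indirubin it is also known to activate the aryl hydrocarbon receptor (AHR). Sex was not determined, and ureters were pooled before RNA extraction. Each of the 2 arrays compared a BIO pool with a control pool, with exchanged dyes on the second array, so that n = 2 pools per group throughout. The explants hold all cells that come with a dissected ureter: all 10 mesenchymal and all 10 epithelial marker genes examined passed the filter on dim probes, and so did all 10 endothelial markers and 9 of 10 macrophage markers. Between 70.1% and 80.9% of the spots were well above background in each channel, 0 were saturated, and the log2 ratios of the 2 arrays correlated with r = 0.801 across probes, which are not independent replicates.

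The promoter sequences of 4 of the genes are shown because these genes stand for the different responses described below: Cxcl12 and Cxcr4 for the falls, Cxcl10 for the rise and Cxcl1 for the case in which the arrays went opposite ways. Each run gives, 5′ to 3′ on the strand of the gene, the 250 bases before the start of the gene in RefSeq's annotation of GRCm38.p6. Capitals mark matches to the motifs searched, on either strand. The windows lie at chr6:117168285-117168534 on the plus strand for Cxcl12, chr1:128592300-128592549 on the minus strand for Cxcr4, chr5:90890995-90891244 on the plus strand for Cxcl1 and chr5:92348890-92349139 on the minus strand for Cxcl10.
Cxcl12: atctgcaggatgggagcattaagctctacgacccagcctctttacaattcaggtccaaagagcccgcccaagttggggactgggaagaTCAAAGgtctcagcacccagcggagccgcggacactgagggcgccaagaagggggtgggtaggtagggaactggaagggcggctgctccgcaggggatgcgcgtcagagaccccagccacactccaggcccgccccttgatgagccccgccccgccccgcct
Cxcr4: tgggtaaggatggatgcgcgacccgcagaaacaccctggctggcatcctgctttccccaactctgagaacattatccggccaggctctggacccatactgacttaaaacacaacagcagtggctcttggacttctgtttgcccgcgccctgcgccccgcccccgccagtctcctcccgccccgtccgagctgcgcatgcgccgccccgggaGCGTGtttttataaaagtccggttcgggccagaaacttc
Cxcl1: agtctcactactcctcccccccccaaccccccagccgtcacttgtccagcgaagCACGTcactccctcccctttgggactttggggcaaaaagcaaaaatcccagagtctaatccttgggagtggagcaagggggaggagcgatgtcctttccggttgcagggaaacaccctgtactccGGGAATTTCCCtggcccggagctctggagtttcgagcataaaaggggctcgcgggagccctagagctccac
Cxcl10: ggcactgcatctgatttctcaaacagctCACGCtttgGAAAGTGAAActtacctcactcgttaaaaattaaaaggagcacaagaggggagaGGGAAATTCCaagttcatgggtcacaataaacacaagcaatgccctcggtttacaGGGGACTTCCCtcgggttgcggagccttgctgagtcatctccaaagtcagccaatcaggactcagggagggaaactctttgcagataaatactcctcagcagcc

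The search covered these 250 bases and the 50 after the start. It used CTTTGA and CTTTGT for TCF/LEF factors, which mediate canonical WNT signaling, GCGTG for AHR, ACGTG for hypoxia-inducible factors, GAAA followed by NN and again GAAA for the interferon-stimulated response element (ISRE) and the kappaB consensus bound by NF-kB. Of 32851 promoters in the table, 16% held CTTTGA, 18.7% CTTTGT, 32.4% GCGTG, 19.6% ACGTG, 3.44% the ISRE letters and 8.46% the kappaB consensus. A promoter was found for 7 of the 10 genes, namely Cxcl12, Cxcr4, Ackr3, Cxcl14, Cxcl13, Cxcl1 and Cxcl10. Among these, a TCF/LEF match was seen in Cxcl12, from position -162 relative to the start. AHR letters were seen in Cxcr4, Ackr3, Cxcl14, Cxcl13 and Cxcl10. The letters for hypoxia-inducible factors were seen in Cxcl1, from position -196 relative to the start. Cxcl1 and Cxcl10 held kappaB matches, of which some overlapped each other, and Cxcl14 and Cxcl10 held ISRE letters. The promoters of Cxcl12 and Cxcr4 were rich in G and C, at 64.4% and 61.2%, with 14 and 19 CpG dinucleotides, against medians of 52.4% and 6 over all promoters, whereas Cxcl13 had 42% and 2. A match is a run of letters and does not show binding.

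The comparison of BIO with DMSO asked how the axis and the other chemokine genes respond when WNT signaling is activated pharmacologically. Transcripts of the ligand and of both receptors of the axis fell, as did Cxcl14, Cxcl13, Ccl2 and Ccl11, and Cxcl10 rose. Hence 7 of the 10 genes fell, 1 rose and 2, Cxcl16 and Cxcl1, were not called at an adjusted p below 0.05 (limma). Over all 21574 genes tested, 14.8% fell and 9.13% rose. The median log2 ratio of the 10 genes was -1.11, with -1.49 in replicate 1 and -0.91 in replicate 2, beside -0.01 over all genes tested. All 10 genes passed the filter on dim probes and 9 of them moved in 1 direction on both arrays, a share that was 72.9% over all genes tested. Less RNA per cell and fewer cells of a type cannot be told apart in RNA of whole explants.

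**Figure D1:**
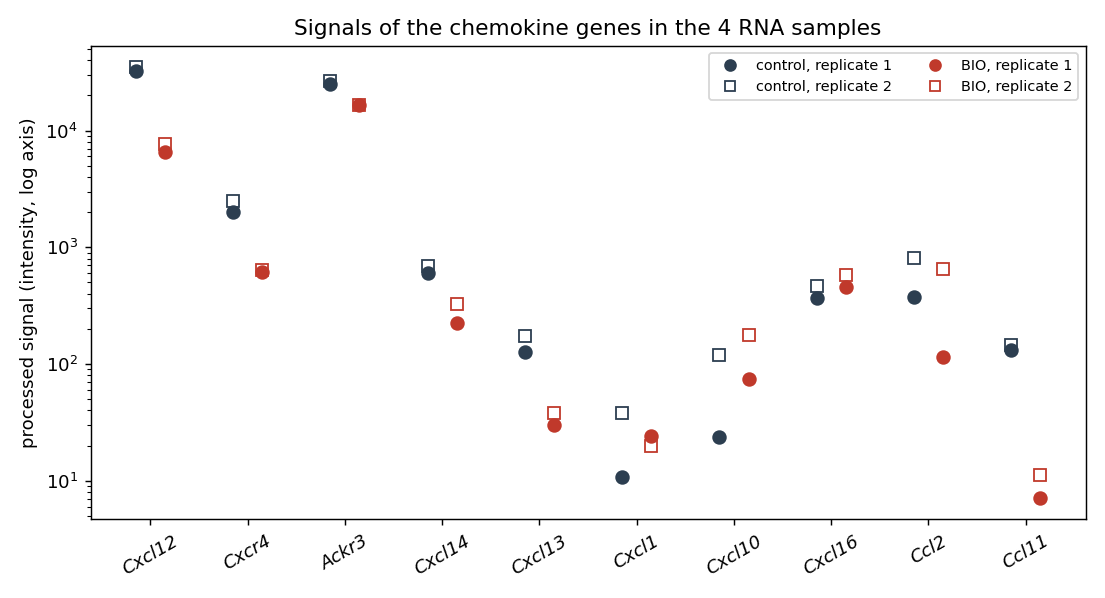
Processed signal (intensity, log axis) of the brightest probe of each of the 10 genes in the 4 RNA samples, with control in dark blue, BIO in red, filled circles for replicate 1 and open squares for replicate 2. Heights can be compared within a gene but not between genes, since probes differ in brightness. The control and BIO symbols are apart for Cxcl12, Cxcr4, Ackr3, Cxcl14, Cxcl13 and Ccl11 and overlap in height for the other 4 genes.

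Cxcl12 was measured by 2 probes on chromosome 6. In the probe further downstream (NM_001012477, 117131227 to 117131286, mm9), the control pools had processed signals of 32218 (replicate 1) and 34741 (replicate 2), and the BIO pools had 6537 and 7657. Both control pools thus lay far above both BIO pools, at nearly the same heights on the 2 arrays. On the log2 scale the ratio of BIO over control was -2.39 in replicate 1 and -2.15 in replicate 2. The mean of -2.27 ± 0.12 (SE, n = 2) had an adjusted p of 3.18e-05 (limma) and corresponds to a 4.83-fold decrease. This was the 38th largest fall among the 21574 genes tested.

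The probe nearer the promoter (NM_021704, 117125026 to 117125085) gave 6642 and 7281 in the control pools and 1329 and 1734 in the BIO pools. Its log2 ratios of -2.33 and -2.05 averaged -2.19 ± 0.12 (SE, limma adjusted p 3.44e-05). The ratios of the probes differed by -0.06 and -0.10 on the 2 arrays, a mean of -0.08 ± 0.03 (SD), so that the probes fell to a like extent. The probe sequences are shown to tell these measurements apart, each by a stretch of 30 bases, with the polyadenylation signal letters AATAAA in capitals where they occur. Of the 60-base probes, the stretches cover bases 30 to 59 (NM_021704), 31 to 60 (NM_001012477) and 27 to 56 (NM_009911). AATAAA was found in 2 of the 12 probes of the 10 genes, the other being the probe of Cxcr4, and in 12.6% of all probes.
Cxcl12 probe NM_021704: ttatttacctgaAATAAAatctactagttg
Cxcl12 probe NM_001012477: tgctttcttattcttatttttaatatatga
Cxcr4 probe NM_009911: tgtggtaaattgAATAAAgctagccgtgat

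Cxcr4 encodes the signaling receptor of CXCL12. At its probe (NM_009911, chromosome 1, 130485079 to 130485138), control signals of 2019 and 2481 in replicates 1 and 2 stood against BIO signals of 613 and 645. The BIO pools were close to each other and well below both control pools. Log2 ratios of -1.71 and -1.96 averaged -1.83 ± 0.12 (SE, n = 2), a 3.56-fold decrease at a limma adjusted p of 6.08e-05. With the deposited scores the ratio was -1.82 and the call was lost (adjusted p 0.0594).

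Ackr3, the gene of the atypical receptor, fell less. Its probe (NM_007722, chromosome 1, 92111803 to 92111862) read 25034 and 26776 in the control pools and 16541 and 16504 in the BIO pools. Again the groups did not overlap. The arrays gave log2 ratios of -0.67 and -0.74, and the mean of -0.71 ± 0.11 (SE, n = 2) was a 1.63-fold decrease (limma adjusted p 0.00271). This call was lost with median centering in place of loess (-0.53, adjusted p 0.0936) and with the deposited table of scores (-0.63, adjusted p 0.0805).

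The log2 ratio of Cxcr4 minus that of Ackr3 was -1.03 in replicate 1 and -1.22 in replicate 2, a mean difference of -1.13 ± 0.13 (SD, n = 2). The balance between the receptor transcripts thus shifted in the same direction on both arrays. With 2 arrays an exact permutation test of such a difference cannot reach 0.05, and none is given. The difference between Cxcl12 and Cxcr4 was less even, at -0.69 and -0.19.

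**Figure D2:**
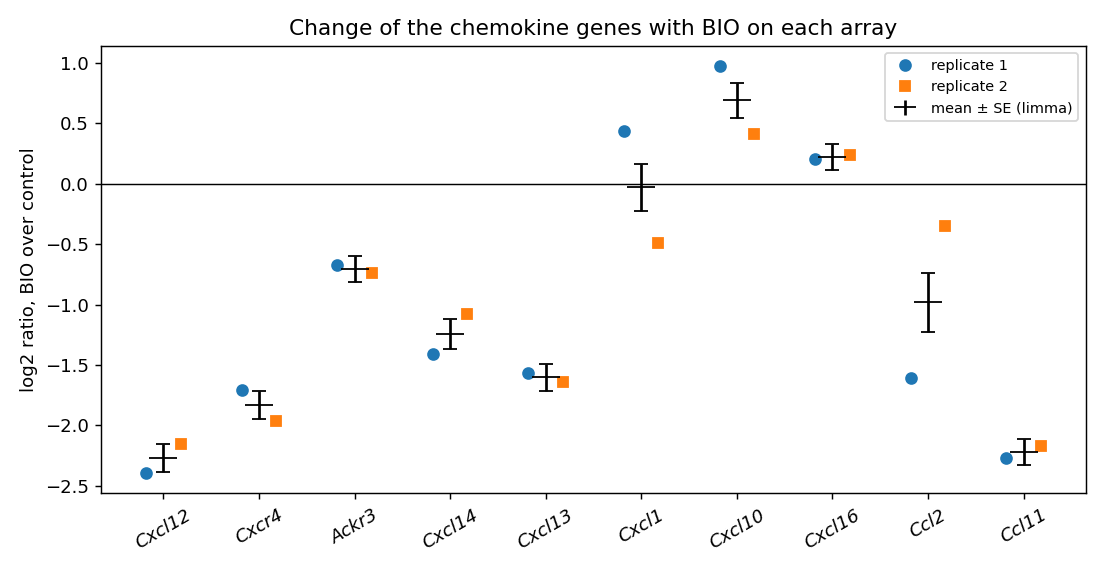
Log2 ratio of BIO over control for each of the 10 genes on each array (circles for replicate 1, squares for replicate 2), with the mean and its SE from limma in black. Cxcl12, Cxcr4, Cxcl14, Cxcl13 and Ccl11 lie below -1 on both arrays, Cxcl10 lies above 0 on both, and the points of Ccl2 and Cxcl1 are far apart.

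Of the CXC ligands outside the axis, Cxcl14 encodes a homeostatic chemokine of epithelia and mesenchyme. Its probe (NM_019568, chromosome 13, 56390078 to 56390137) gave 597 and 690 in the control pools, and 224 and 326 in the BIO pools. The groups did not overlap. With -1.41 and -1.07 on the arrays, the mean log2 ratio was -1.24 ± 0.12 (SE, n = 2, limma adjusted p 0.000332). The deposited scores gave no call for it (adjusted p 0.149).

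Cxcl13 encodes the ligand of CXCR5 that attracts B lymphocytes. At its probe (NM_018866, chromosome 5, 96389861 to 96389920) the control pools of replicates 1 and 2 had signals of 127 and 173, and the BIO pools had 30.1 and 38.4. Both BIO pools were low and well apart from control. Its log2 ratio averaged -1.60 ± 0.11 (SE, n = 2) from -1.57 and -1.64 on the arrays, at a limma adjusted p of 7.91e-05.

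Cxcl10 encodes an interferon-inducible ligand of CXCR3 and was the only one of the 10 genes that rose. Its probe (NM_021274, chromosome 5, 92775781 to 92775840) gave 23.9 and 120 in the control pools, and 73.8 and 177 in the BIO pools. BIO was above control within each array, but the control pool of replicate 2 exceeded the BIO pool of replicate 1. Log2 ratios of 0.97 and 0.41 on the arrays averaged 0.69 ± 0.15 (SE, n = 2, limma adjusted p 0.0117). This rise was not called with the deposited scores (adjusted p 0.330). A second probe of Cxcl10 (AK156907) was too dim to be tested, with processed signals between 5.33 and 12.6.

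Cxcl16 encodes a transmembrane ligand of CXCR6. Its probe (NM_023158, chromosome 11, 70267780 to 70267839) read 366 and 469 in the control pools, and 457 and 575 in the BIO pools, so that the groups overlapped. The mean log2 ratio of 0.22 ± 0.11 (SE, n = 2), from 0.20 and 0.24, was not called (limma adjusted p 0.181).

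Cxcl1 encodes a ligand of CXCR2 that attracts neutrophils. Its probe (NM_008176, chromosome 5, 91321845 to 91321904) was dim, with control signals of 10.7 and 38.1 and BIO signals of 24.2 and 19.9 in replicates 1 and 2. It was higher with BIO on the first array and lower on the second, and thus brighter in the red channel on both, since the dyes were exchanged. Log2 ratios of 0.43 and -0.49 left a mean of -0.03 ± 0.19 (SE, n = 2, limma adjusted p 0.933).

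Ccl11 encodes eotaxin-1, a ligand of CCR3. At its probe (NM_011330, chromosome 11, 81876072 to 81876131) the control pools had signals of 131 and 146, and the BIO pools had 7.13 and 11.1, close to background. Only 1 array had a BIO signal well above background. The arrays differed little, with log2 ratios of -2.27 and -2.17 and a mean of -2.22 ± 0.11 (SE, n = 2, limma adjusted p 3.18e-05). With an offset of 16 in place of 50 the log2 ratio was -2.77. With the processed signals, which differ also in background correction and normalization, it was -3.98, a value that rests on BIO signals close to background.

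Ccl2 encodes a ligand of CCR2 that attracts monocytes. Its probe (NM_011333, chromosome 11, 81850650 to 81850709) gave 378 and 816 in the control pools, and 115 and 652 in the BIO pools. BIO was below control within each array, while the BIO pool of replicate 2 exceeded the control pool of replicate 1. From log2 ratios of -1.61 and -0.35 the mean was -0.98 ± 0.25 (SE, n = 2), at a limma adjusted p of 0.0235. This call was lost with the processed signals (adjusted p 0.0802), when dim probes were not filtered out (0.0737), and also for the deposited scores (0.451).

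In the processed signals of the 4 samples, control and BIO did not overlap in 6 of the 10 genes, beside 56.3% of all genes tested. The study applied minimums of intensity and fold change to further arrays of the same kind. They were applied here as at least 2-fold in the same direction and at least 100 on both arrays, with the intensity read in the brighter channel, a choice made here. By this rule 5 of the 10 genes were lower, namely Cxcl12, Cxcr4, Cxcl14, Cxcl13 and Ccl11. None was higher. Over all genes tested, 2.04% were lower and 1.04% higher by it, without a test.

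The replicates differed from each other in the level of some chemokine transcripts, averaged over both groups. For each gene the level of replicate 2 minus that of replicate 1 was taken as the mean over control and BIO, in which the dyes are balanced. This difference was 1.49 (log2) for Ccl2 and 1.20 for Cxcl10, the 17th and 37th largest in size among 21574 genes, whose median size was 0.0727. Control and BIO were each higher in replicate 2 for both of these genes. The difference was 0.10 for Cxcl12, 0.09 for Cxcr4 and -0.03 for Ackr3. Of the other chemokine ligands tested, Ccl3 (1.01), Cxcl3 (0.65), Ccl9 (0.63), Ccl7 (0.62) and Cxcl2 (0.59) were also within the 1% of genes with the largest difference between replicates, which makes 5 of 21 ligands beside 2 of the 10 genes described here. All 7 were higher in replicate 2 in this mean over both groups. For Cxcl3 and Cxcl2 the difference was 1.51 and 1.16 within control and -0.21 and 0.02 within BIO. Within a group the dye also changed between the replicates, so that these values cannot be told apart from a dye effect. Both genes were dim, with processed signals between 3.21 and 60.4. Of 10 tested genes of the NF-kB and inflammatory response list, 0 were within that 1%. Ccl2 and Cxcl1 were also among the genes whose log2 ratios differed most between arrays, by 1.26 and 0.93, against a median of 0.164. Each replicate was 1 array, so that a difference between pools and one between arrays cannot be told apart. For the log2 ratios, an effect of the exchanged dyes cannot be told apart from these either.

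**Figure D3:**
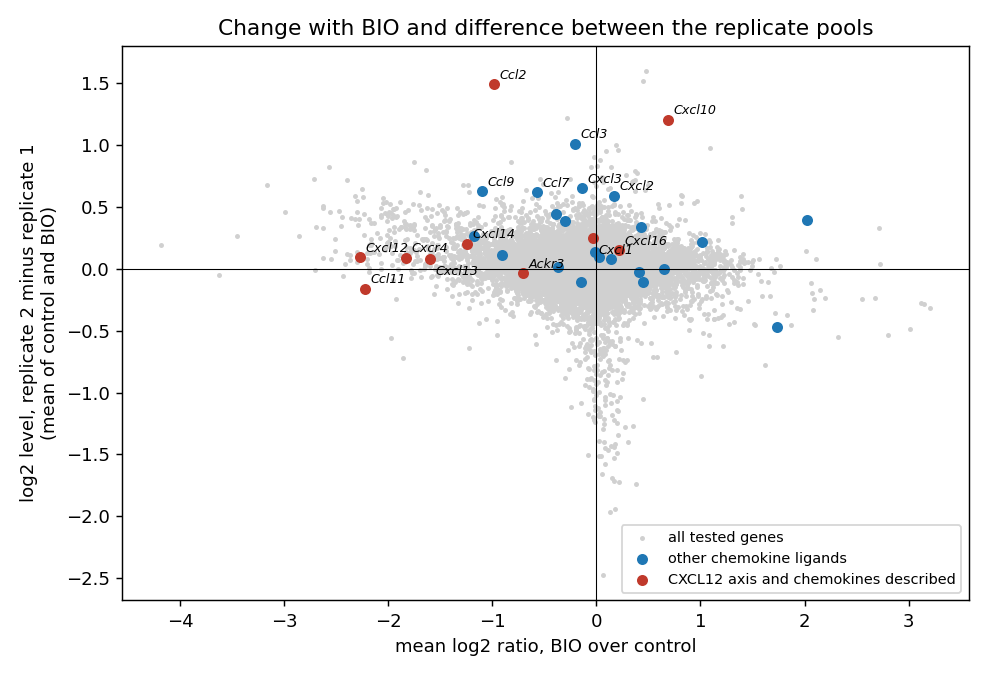
Mean log2 ratio of BIO over control (x axis) against the log2 level of replicate 2 minus replicate 1, averaged over control and BIO (y axis), for all genes tested (gray), the 10 genes described (red) and the other chemokine ligands (blue). Ccl2 at 1.49 and Cxcl10 at 1.20 lie far above most genes, while Cxcl12, Cxcr4 and Ackr3 lie near 0 on the y axis.

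The remaining chemokine ligands moved in both directions. Of 30 such genes listed, 29 were on the array and 21 were tested, of which 6 rose and 5 fell, with a median of -0.01. The largest rise was that of Pf4 (platelet factor 4, CXCL4), a chemokine of megakaryocytes and platelets. Signals of 572 and 711 in the control pools stood against 2104 and 3570 in the BIO pools, and log2 ratios of 1.75 and 2.30 averaged 2.03 ± 0.14 (SE, n = 2, limma adjusted p 9.72e-05). Cxcl5, a neutrophil attractant, rose by 1.73, and Ppbp, another platelet chemokine, by 1.02. Cxcl15 rose by 0.65, Ccl24 by 0.45 and Ccl28 by 0.43. Ccl24 was dim, with control signals of 9.26 and 6.59 and BIO signals of 19.8 and 20.9. Only 1 array had its control signal well above background. Cxcl15 was dim too, at 21.5 and 30.5 in control and 62.8 and 53.8 with BIO. The falls were those of Ccl6 (-1.17), Ccl9 (-1.10), the endothelial transmembrane chemokine gene Cx3cl1 (-0.90), Ccl7 (-0.57) and Cxcl11 (-0.36, adjusted p 0.0455 in limma). Ccl7 was dim, with signals of 29.6 and 69.5 in control and 10.0 and 41.1 with BIO. For Cxcl11 the call rests on its brighter probe, with signals between 37305 and 55603, whereas a second probe, with signals between 1956 and 2710, was at 0.02 (adjusted p 0.916), and the specificity of the brighter probe was not tested. With the 10 genes described above, 42 chemokine and chemokine receptor genes were tested, of which 14, Cxcl11 included, fell and 7 rose. The 10 genes, chosen with results known, gave 7 of these falls and 1 of these rises. The shares over all genes tested were 14.8% fallen and 9.13% risen.

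Several of these genes are neighbors on a chromosome. In the order of RefSeq genes, Cxcl5, Ppbp, Pf4, Cxcl3, Cxcl15, Cxcl1 and Cxcl2 follow each other on chromosome 5. In this run, Cxcl5, Ppbp, Pf4 and Cxcl15 rose. Cxcl3 (mean -0.14), Cxcl1 (-0.03) and Cxcl2 (0.17) were higher with BIO in replicate 1, lower in replicate 2 and not called. BIO was read in red in replicate 1 and in green in replicate 2. These 3 genes were thus brighter in red on both arrays, and a dye effect cannot be told apart from a difference between replicates. Signals of Cxcl3, Cxcl1 and Cxcl2 were dim, between 3.21 and 60.4. On chromosome 11, Ccl2, Ccl7, Ccl11, Ccl12, Ccl8 and Ccl1 follow each other. Of these, Ccl2, Ccl7 and Ccl11 fell, Ccl12 was at -0.30 (adjusted p 0.134 in limma), and Ccl8 and Ccl1 were too dim to be tested. The Cxcl genes of the first run and the Ccl genes of the second are close relatives, and cross-binding between their probes was not tested.

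**Figure D4:**
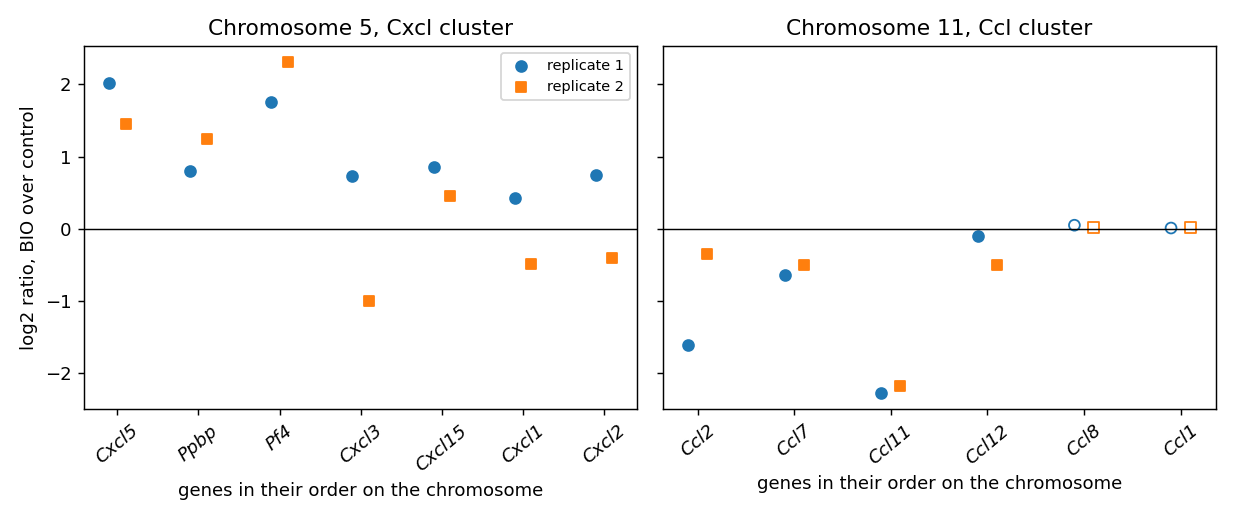
Log2 ratio of BIO over control on each array (blue circles, replicate 1; orange squares, replicate 2) for neighboring chemokine genes in their order on chromosomes 5 and 11, with open symbols for genes too dim to be tested. The first 3 genes on chromosome 5 lie above 0 on both arrays, whereas Ccl2, Ccl7 and Ccl11 on chromosome 11 lie below 0 on both.

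Among the other chemokine receptors, 11 of 21 were tested, of which 2 fell (18.2%, beside 14.8% over all genes tested) and none rose. Cx3cr1, the receptor gene for CX3CL1, had the largest fall, by 1.75 (adjusted p 0.000155 in limma). Cxcr2, Cxcr3, Cxcr5, Cxcr6, Ccr2 and Ccr3, taken here as the receptor genes of ligands outside the axis, were dim. Cxcr3 for CXCL10 was at -0.16, Cxcr6 for CXCL16 at -0.20 and Ccr3 for CCL11 at -0.00, none of them called. Cxcr2, Cxcr5 and Ccr2 did not pass the filter on dim probes.

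Downstream of the receptors of the axis, 10 of 21 signaling genes fell and none rose, with a median of -0.39. The largest fall was that of Pik3cg, the catalytic subunit of the PI3-kinase that G protein beta-gamma subunits activate, at -1.62. Its regulatory subunit gene Pik3r5 was at -0.70. The regulator of G protein signaling gene Rgs16 fell by 1.35, and Elmo1, whose product acts with DOCK proteins on RAC, fell by 1.25. Of the receptor kinase genes, Grk5 fell by 1.23 and Grk3 by 0.81, while Grk6 (-0.22) and Grk2 (-0.04) were not called. The arrestin genes Arrb1 (-0.19) and Arrb2 (0.09) were not called either. Smaller falls were those of Stat3 (-0.68), the inhibitory G protein gene Gnai2 (-0.66), Rac2 (-0.63) and Rac1 (-0.55). In place of 10, the falls were 8 with median centering, 2 with the deposited scores and 13 with the mean of a gene's probes.

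Genes whose products cleave or bind chemokines were mixed, with 4 of 10 fallen, 2 risen and a median of -0.21. Dpp4, a peptidase that inactivates CXCL12, rose by 0.61, and the heparan sulfate proteoglycan gene Sdc1 rose by 0.52. The metalloproteinase genes Mmp14, Mmp2 and Adam10 fell by 0.56, 0.42 and 0.40, and the syndecan gene Sdc4 fell by 0.54. These calls were not stable: the 4 falls became 2 with an offset of 16 and 1 with the processed signals, median centering or the deposited scores, and the 2 rises became 0 with median centering or the deposited scores. Of 10 tested genes of the NF-kB and inflammatory response, 1 fell and none rose. That gene was Vcam1, a leukocyte adhesion molecule, at -1.58, and the median of the list was -0.08.

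Marker genes of the cells that may make or receive these chemokines moved with BIO as well. All 10 endothelial markers fell, with a median of -2.07 and the largest fall in Kdr (-2.63), and their summed processed signal was 32208 and 39152 in control against 6113 and 11392 with BIO. Of 10 mesenchymal markers, 9 fell, with a median of -0.85 and the largest fall in Pdgfrb (-2.17), and summed signals of 288369 and 315826 in control against 163469 and 187854 with BIO. Of 9 tested macrophage markers, 4 fell, the largest being Aif1 (-0.79), with sums of 9353 and 10431 against 6669 and 9512. Of 10 epithelial markers, 5 fell, with a median of -0.52 over the list and the largest fall in Upk3a (-1.98). The other 5 were not called, namely Epcam (0.02), Cldn7 (-0.06), Gata3 (-0.10), Cldn4 (-0.12) and Grhl2 (-0.16). The sums of the epithelial list were 89928 and 91716 against 54230 and 64228. Bright probes weigh most in such sums. Here Krt18 went from 28778 and 27684 (control) to 13999 and 17747 (BIO), and Krt8 from 28018 and 27676 to 13851 and 16942. No marker of these lists was below background on all arrays of a group. The part of these cells in the falls of Cxcl12, Cxcr4 and the other chemokine genes was not tested. Of 7 Schwann cell and neuronal markers 3 fell, with a median of -0.35 and sums of 34021 and 37347 against 25063 and 34288. Of 6 erythroid markers 2 fell, led by Hba-a1 (-0.65), with a median of -0.37 and sums of 188109 and 214045 against 140323 and 116541. With median centering, and also with the deposited scores, 0 genes of either list were called, and 1 erythroid marker was called with an offset of 16 or without the filter.

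**Figure D5:**
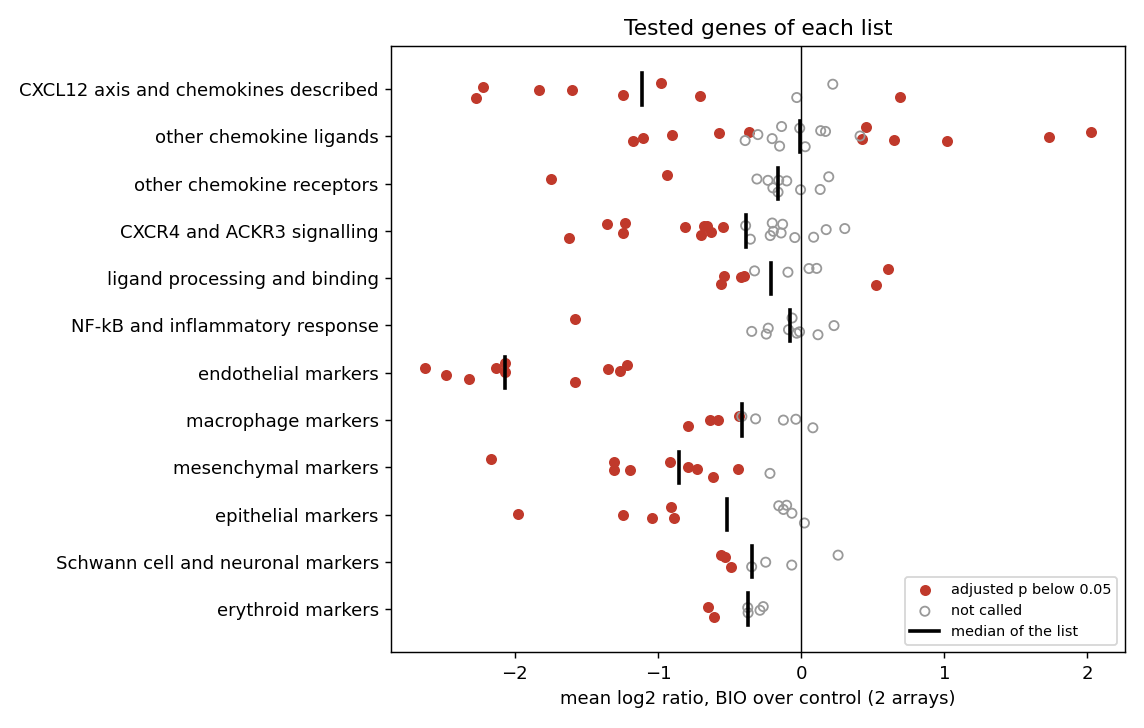
Mean log2 ratio of BIO over control of every tested gene of each list, with filled red circles for genes at an adjusted p below 0.05 (limma), open gray circles for genes not called and a black bar for the median of the list. The median lies at -1.11 for the genes described, at -2.07 for the endothelial markers and at -0.01 for the other chemokine ligands.

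Among the 125 genes of these other lists, the ones with the pair of log2 ratios nearest to that of Cxcl12, by Euclidean distance over the 2 arrays, were the endothelial gene Pecam1 (-2.17 and -2.09, distance 0.227), Pdgfrb (-2.45 and -1.88, distance 0.276) and the endothelial gene Cldn5 (-2.34 and -1.80, distance 0.351). Nearest to Cxcr4 were Upk3a (distance 0.451), Pecam1 (0.488) and Pik3cg (0.524). Nearest to Ackr3 were Pik3r5 (0.0486), Gnai2 (0.0959) and the collagen gene Col1a2 (0.0966). These distances rest on 2 values each and are a description.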

How the data were processed

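The authors scanned Agilent 2-color arrays with 4 spots per probe and quantified them, per the labels, with Agilent Feature Extraction 10.7.3.1. The deposited scanner tables hold spot intensities, local background intensities and processed signal intensities, already background-subtracted and dye-normalized by that software. The authors also deposited a table with 1 score per probe and array, for which no method is given. Compared with the scanner values (r = 0.970 and 0.974 with the log2 ratios), the score runs as BIO over control on a linear signed scale, while its centering stays unknown and its column median was 1 on both arrays.

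In limma 3.58.1 (R 4.3.3), mean intensities were background-corrected by normexp (offset 50) and log2 ratios were normalized within arrays by loess. Control spots and spots flagged as outliers (3.49% and 3.16%) were left out, spots were averaged, and the dye-swapped array was turned. A probe was tested when over a share of 0.5 of its spots exceeded background clearly, per Feature Extraction's mark, for control on both arrays or for BIO on both, which held for 28824 of 39429 probes. A two-sided limma test of their ratios against 0 (lmFit, eBayes) was adjusted over these probes by Benjamini-Hochberg, at 0.05. Each gene is represented by its brightest probe. Processed signals printed are means over spots. For the 2-fold rule values under 15 were set to 15 and each array was centered on its median. Levels were compared between arrays after Aquantile normalization. Precision is limited by the number of arrays, with a median SE of 0.111 (log2). The methods describe pools of ureters, and nothing says that the pools are independent of each other, so that p-values do not reach beyond these pools. In limma the spread between the arrays is moderated toward that of all tested probes (prior of 7.14 degrees of freedom). Both the SE and the p-values thus rest in part on the spread of other probes. Both arrays lay on 1 slide.

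Probes were named through RefSeq genes of GRCm38.p6 (28328 by accession, 3400 by symbol, 242 by synonym, 7459 by the file's name only). Probe coordinates are those of the files, in mm9. The genes and lists were chosen with earlier results of these data known. Named were all 10 genes, the strongest rise and fall of each list, every called gene of the chemokine, signaling and processing lists, the receptors of the ligands and the nearest genes. Some genes that this rule names are not reported here. The test was checked on simulated data. Alternatives were an offset of 16, processed signals, median centering, the deposited scores, no filter, the mean of a gene's probes, other limits of the 2-fold rule and each array alone.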

Additional observations from a re-analysis of the deposited data

How the results depend on the processing

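No call among the 10 genes changed its direction under any alternative run, and Cxcl12 and Cxcl13 and Ccl11 kept their calls in each that has a test. The median of the 10 genes was between -1.24 and -1.11 with both arrays and between -1.49 and -0.91 with 1 array. On single arrays the log2 ratio was between -2.39 and -2.15 for Cxcl12, between -1.96 and -1.71 for Cxcr4 and between -0.74 and -0.67 for Ackr3, and the 2-fold rule gave 5 to 6 lower and 0 higher genes. With a minimum of 1.5-fold it gave 6 and with 3-fold 4. On single arrays the ratio of Ccl2 was -1.61 or -0.35 and that of Cxcl1 0.43 or -0.49, and Cxcl1, which was not called, also changed its sign with the processed signals (0.09) and median centering (0.02).

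With the deposited scores the number of fallen genes was 3 in place of 7, Cxcr4 was at -1.82 (limma adjusted p 0.0594) and Ackr3 at -0.63 (0.0805), Cxcl14 (0.149) and Cxcl10 (0.330) were also lost and Cxcl16 was gained (0.0342). In the other lists, the deposited scores gave 7 fallen and 1 risen genes in place of 55 and 8. These scores appear to be rounded, and probes with the same value on both arrays were not counted. With median centering Ackr3 was at -0.53 (0.0936), the other lists gave 38 fallen and 4 risen genes, and fallen mesenchymal markers were 5 in place of 9. Over the tested probes, the median-centered log2 ratios themselves had a median of -0.16 in replicate 1 and 0.06 in replicate 2. The cause of these losses was not tested. The remaining alternatives gave 6 or 7 fallen genes among the 10 and 50 to 60 in the other lists. Dim signals limit Ccl11, Cxcl10 and Cxcl13, whose ratios were -2.77, 0.82 and -1.86 with an offset of 16 in place of -2.22, 0.69 and -1.60.

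The test was itself a paired one, because each array holds a BIO pool and a control pool and its ratio is the paired value. A slide block could not be fitted on 1 slide, a dye term would leave no residual degree of freedom, and calls on single arrays have no test.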
